A study of Mus musculus with 6 samples.

Results

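The MAP kinase cascade and the dual-specificity phosphatases (DUSP) were examined in resting bone marrow-derived macrophages with and without a knockout of Gps2. The genes were those whose platform symbol starts with Mapk, Map2k, Map3k, Map4k or Dusp followed by a digit, together with Mapkapk2, Mapkapk3 and Mapkapk5. They were taken by name, and 70 of the 18820 tested genes met the rule. For each gene the probe set with the highest mean over all 6 arrays was used. Total RNA was hybridised to Affymetrix arrays, with 3 arrays of macrophages labelled GPS2KO and 3 of wild-type (WT) macrophages. The mice of both groups were male and were killed at an age of 12 to 16 weeks. Their marrow was grown into macrophages over 7 days with L929-conditioned medium, and neither group received a stimulus. The growth protocol calls the knockout mice GPS2 MKO, and the deleted exons, any Cre driver and the strain are not given in the sources used here. No label links an array to its own animal. The p-values therefore cover only the spread among the samples, and that spread may be technical.

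MAP kinase cascades are relays of protein kinases. A MAP4K or another upstream signal activates a MAP3K, which phosphorylates a MAP2K, which in turn phosphorylates a MAP kinase on a threonine and a tyrosine. ERK, JNK and p38 are the main MAP kinases, and many DUSP phosphatases remove both phosphates again. In macrophages the cascades carry signals from growth factors and Toll-like receptors to cytokine genes, and GPS2 is known as a suppressor of JNK. The arrays measured RNA and do not show kinase activity.

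The sequences at the start of 4 called genes are shown so that they can be read beside their values: Map3k9 and Mapk11, which fell under every setting tried, Dusp22, which fell, and Dusp7, the only rise. They are RefSeq promoter windows of build GRCm38.p6, 250 bases before to 50 after a start, printed 5′ to 3′. Capitals in the Dusp22 window mark a match to the kappaB motif of NF-kappaB.
Map3k9, chr12:81781121-81781420, minus strand: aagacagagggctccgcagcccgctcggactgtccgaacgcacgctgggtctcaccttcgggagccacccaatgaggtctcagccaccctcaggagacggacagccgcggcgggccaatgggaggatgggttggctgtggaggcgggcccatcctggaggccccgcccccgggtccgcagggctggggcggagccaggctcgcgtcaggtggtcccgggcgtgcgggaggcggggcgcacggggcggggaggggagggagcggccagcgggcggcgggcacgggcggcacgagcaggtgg
Mapk11, chr15:89149557-89149856, minus strand: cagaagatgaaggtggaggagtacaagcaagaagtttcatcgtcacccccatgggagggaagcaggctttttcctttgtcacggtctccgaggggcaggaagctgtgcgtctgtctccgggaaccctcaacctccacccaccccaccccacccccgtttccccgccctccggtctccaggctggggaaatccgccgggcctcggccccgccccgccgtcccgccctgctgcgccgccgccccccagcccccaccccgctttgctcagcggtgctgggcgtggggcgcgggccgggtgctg
Dusp22, chr13:30659809-30660108, plus strand: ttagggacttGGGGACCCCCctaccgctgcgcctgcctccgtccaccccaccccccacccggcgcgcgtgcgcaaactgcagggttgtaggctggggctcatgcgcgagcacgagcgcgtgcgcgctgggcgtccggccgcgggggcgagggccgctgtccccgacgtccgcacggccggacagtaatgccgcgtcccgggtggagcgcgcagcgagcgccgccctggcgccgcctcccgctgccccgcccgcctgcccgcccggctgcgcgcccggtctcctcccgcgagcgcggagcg
Dusp7, chr9:106368382-106368681, plus strand: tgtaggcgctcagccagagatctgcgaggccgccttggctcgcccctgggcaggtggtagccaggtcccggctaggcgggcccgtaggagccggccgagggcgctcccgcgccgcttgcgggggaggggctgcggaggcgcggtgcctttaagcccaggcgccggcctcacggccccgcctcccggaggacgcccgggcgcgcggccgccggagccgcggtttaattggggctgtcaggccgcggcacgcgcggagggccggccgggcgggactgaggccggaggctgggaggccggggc
Windows on 1 chromosome were left out before counting, so genes there count as having none. Of the 70 genes, 55 had at least 1 such window, among them 5 of the 7 called genes. The 4 windows shown were 69.7% to 79% G and C. Motifs were searched on both strands. The letters TGANTCA (AP-1) stood in 7.81% of all 32851 windows and TGACGTCA (the cyclic AMP response element) in 1.79%. The core of the interferon-stimulated response element stood in 3.44%, the kappaB motif in 4.51% and the CArG box of serum response factor in 1.63%. Counted per gene, with at least 1 window holding the motif, these shares were 8.97%, 2.03%, 3.99%, 5.14% and 1.81% of 27025 genes. Among the 55 cascade genes they were 3.64%, 5.45%, 5.45%, 7.27% and 1.82%, which is 1 to 4 genes a motif. Among the 5 called genes with a window, the only match was the kappaB match of Dusp22, 240 bases before the start. Of all 55 genes, Dusp13 and Map2k6 held the AP-1 letters, and Dusp1, Dusp8 and Mapk10 held the cyclic AMP response element. Mapk10, Mapk14 and Mapkapk3 held the interferon core, Dusp22, Map3k7, Map4k1 and Mapk1ip1l the kappaB motif, and Dusp5 the CArG box. These matches describe letters and are not binding measured here.

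Gps2 was read first, as a test of how the samples were labelled. On the log2 scale its signal was 10.29, 10.16 and 10.19 in GPS2KO, against 10.94, 10.93 and 11.00 in WT. It fell by 0.75 (SE 0.0472, adjusted p = 0.000256), to 59.7% of the WT signal; where its probes lie relative to the deletion is not known here. Correlations across genes lay between 0.9989 and 0.9991 within the groups, and no array stood apart from its group. Genes averaging less than 5.49 on the log2 scale over all 6 arrays, the 40th percentile across genes, are called dim here. Of 11 tested macrophage markers, 10 had means above that limit in both groups. The exception, Cd163, had means of 5.69 in GPS2KO and 5.48 in WT.

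Most of the cascade differed little between the groups. Of 70 genes, 6 fell and 1 rose in GPS2KO (limma, adjusted p under 0.05), and 63 did not pass. The falls were those of Map3k9, Mapk11, Dusp9, Map3k7cl, Dusp22 and Dusp16, the rise was that of Dusp7, and the largest change was 1.35-fold. The called share was 10%, against 6.72% of all tested genes. Falls made up 8.57% of the 70 genes, against 3.83% of all tested genes, and rises made up 1.43%, against 2.9%. The counts are small, and the shares were not tested against the background. The median difference of the 70 genes was -0.02 on the log2 scale, against -0.01 over all tested genes, and the median size of the difference was 0.07, against 0.06. For 40 of the 70 genes the difference was smaller than 0.1 in either direction.

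**Figure D1:**
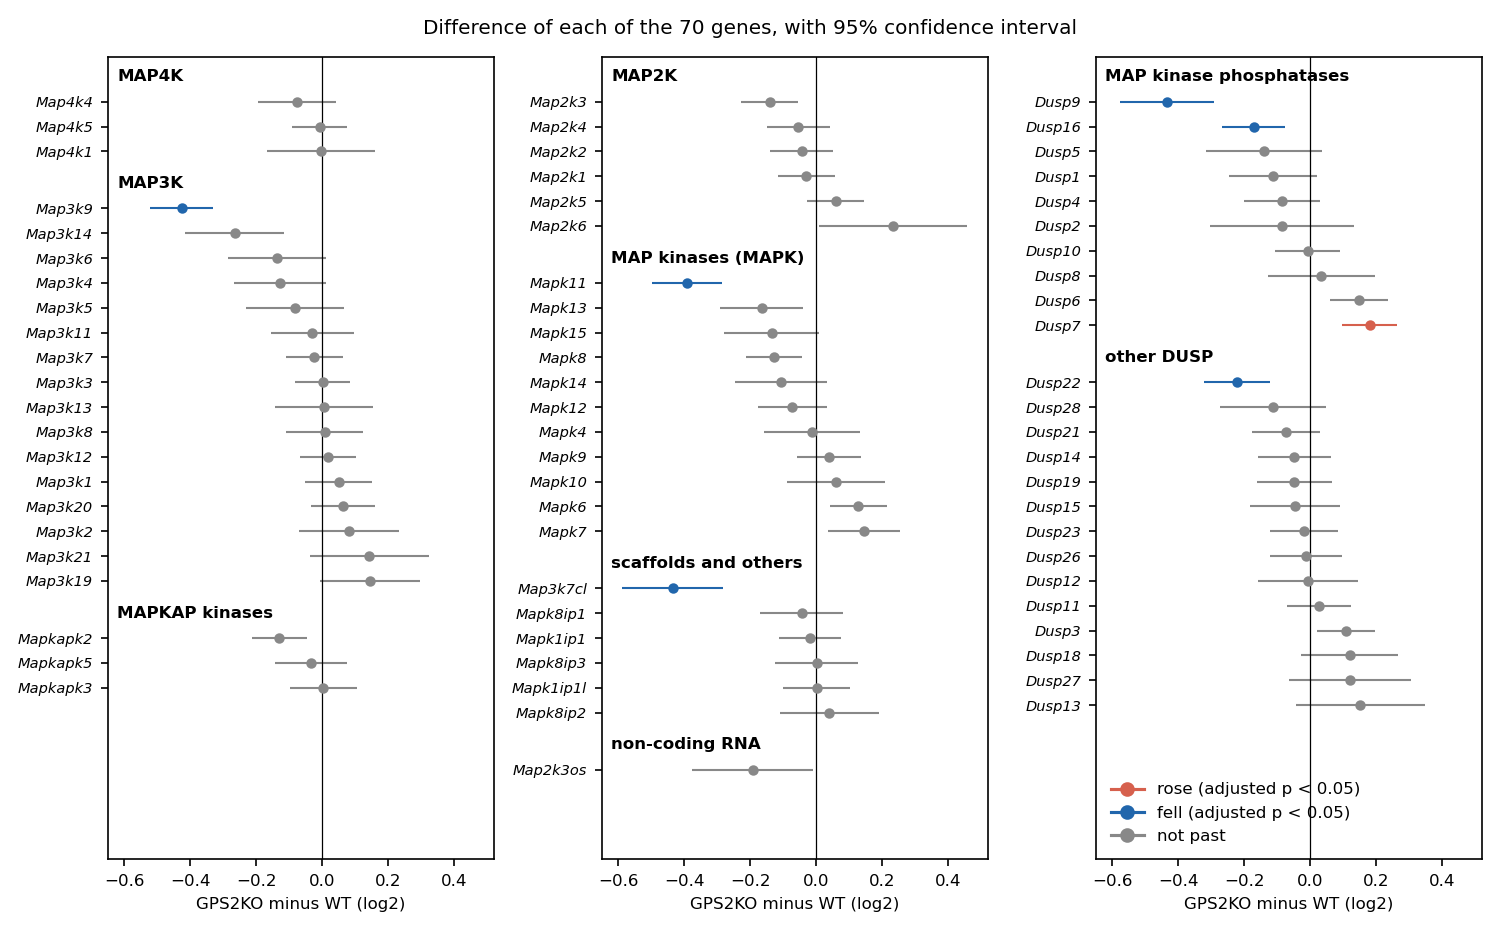
Difference between GPS2KO and WT on the log2 scale (horizontal axis) for each of the 70 genes, grouped by role, with points at the limma estimate and bars for the 95% confidence interval (n = 3 arrays per group). Blue points fell, the red point rose and grey points did not pass; Map3k7cl, Dusp9, Map3k9 and Mapk11 lie farthest left, between -0.44 and -0.39.

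Among the MAP3K, which receive the upstream signals, Map3k9 fell and the other 15 of 16 did not pass. Map3k9 encodes mixed-lineage kinase 1, which can activate JNK through its MAP2K. Its log2 signal was 7.67, 7.62 and 7.72 in GPS2KO, against 8.08, 8.10 and 8.09 in WT. The groups did not overlap, with means of 7.67 ± 0.0512 in GPS2KO and 8.09 ± 0.011 in WT (SD, n = 3 each). The difference was -0.42 (SE 0.041, 95% confidence interval -0.52 to -0.33, adjusted p = 0.00121), or 74.5% of the WT signal. The call held under all 13 alternative settings.

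Map3k14 encodes NIK, the kinase that starts non-canonical NF-kappaB signalling. Its signal was 7.95, 8.02 and 8.16 in GPS2KO, against 8.23, 8.38 and 8.31 in WT, with no overlap. The difference of -0.27 (SE 0.0644) missed the threshold at adjusted p = 0.0533. It passed with a variance trend (adjusted p = 0.0144), after centring each array on its median (0.0325), when dim genes were left out (0.0263) and without GPS2KO replicate 3 (0.0354). With a variance trend 11.6% of all tested genes passed, after centring 8.08% and without dim genes 17.4%, against 6.72% as reported.

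The other 14 MAP3K lay between -0.14 and 0.14 and did not pass. Map3k7, or TAK1, which Toll-like and TNF receptors use, differed by -0.02 (95% confidence interval -0.11 to 0.06). Map3k8, or TPL2, which links NF-kappaB1 to MEK in activated macrophages, differed by 0.01 (-0.11 to 0.12). Map3k5, the stress kinase ASK1, differed by -0.08 (-0.23 to 0.07) and its relative Map3k6, ASK2, by -0.14 (adjusted p = 0.284). The kinases MEKK1, MEKK2, MEKK3 and MEKK4, encoded by Map3k1, Map3k2, Map3k3 and Map3k4, differed by 0.05, 0.08, 0.00 and -0.13. Map3k11, the mixed-lineage kinase MLK3, differed by -0.03, and its relatives Map3k12 and Map3k13, DLK and LZK of neurons, by 0.02 and 0.01. Map3k20, or ZAK, which responds to stalled ribosomes, differed by 0.06. Map3k13, Map3k19 and Map3k21, the last 2 at 0.14 and 0.14, were dim, where background compresses differences. Over the 16 MAP3K the median difference was 0.00. None of the 3 tested MAP4K passed: Map4k4, Map4k5 and Map4k1 differed by -0.08, -0.01 and 0.00.

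Map3k7cl fell. It encodes a short protein that resembles the C-terminal part of TAK1 and has no kinase domain. The log2 signal was 8.45, 8.62 and 8.71 in GPS2KO, against 9.02, 9.01 and 9.06 in WT. The GPS2KO arrays spread more widely than the WT arrays but did not reach them. The difference was -0.44 (SE 0.0662, interval -0.59 to -0.28, adjusted p = 0.0086), or 74% of the WT signal, and it passed under all 13 alternative settings. The JNK-interacting scaffolds Mapk8ip1, Mapk8ip2 and Mapk8ip3, which hold the kinases of a JNK module together, differed by -0.04, 0.04 and 0.00 and did not pass. Mapk1ip1 and Mapk1ip1l differed by -0.02 and 0.00.

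**Figure D2:**
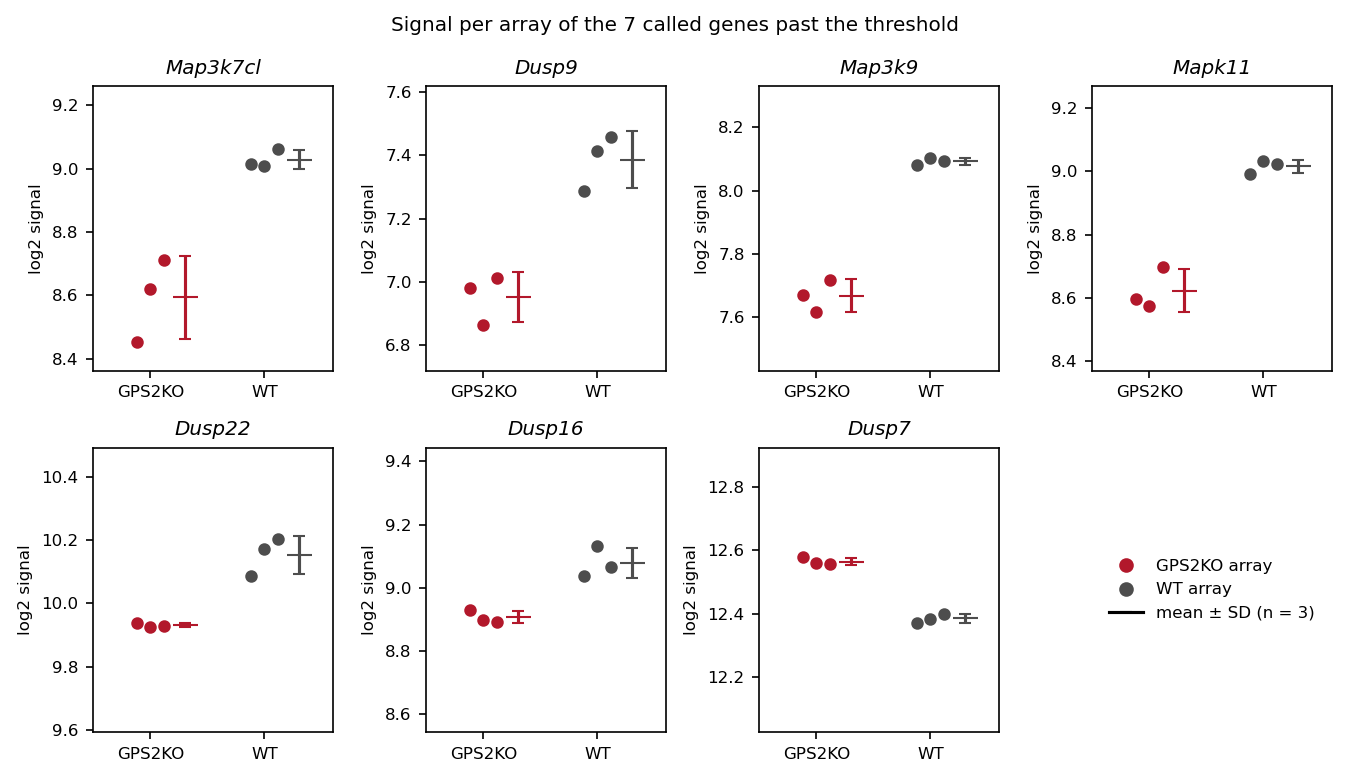
Log2 signal (vertical axis) of the 7 called genes on each of the 3 GPS2KO arrays (red points) and 3 WT arrays (grey points), with the mean ± SD beside them. Each panel spans the same range of log2 units, and in each the groups do not overlap; Dusp7 is the gene with the higher GPS2KO values.

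None of the 6 tested MAP2K passed. Map2k3, one of a pair of p38 activators, came nearest: its signal was 11.05, 11.09 and 11.05 in GPS2KO, against 11.21, 11.18 and 11.23 in WT. The groups did not overlap, and the difference of -0.14 (SE 0.0373) had adjusted p = 0.0686. It passed with a variance trend (adjusted p = 0.00395), after median centring (0.0382) and when dim genes were left out (0.0244). The other p38 activator, Map2k6, had 6.31, 6.50 and 6.19 in GPS2KO, against 5.94, 6.13 and 6.23 in WT, so the groups overlapped. Its difference of 0.23 had the largest SE of the 70 genes, 0.0957 (adjusted p = 0.222). Map2k4, which activates JNK and p38, differed by -0.05 (95% confidence interval -0.15 to 0.04). Map2k1 and Map2k2, the activators MEK1 and MEK2 of ERK, differed by -0.03 (-0.12 to 0.06) and -0.04 (-0.14 to 0.05). Map2k5, the activator of ERK5, differed by 0.06 (-0.03 to 0.14). The non-coding RNA Map2k3os, named as the opposite strand of Map2k3, differed by -0.19 (adjusted p = 0.217).

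Of the 11 tested MAP kinases, Mapk11 fell and 10 did not pass. Mapk11 encodes p38 beta. Its log2 signal was 8.60, 8.58 and 8.70 in GPS2KO, against 8.99, 9.03 and 9.02 in WT. The groups were well apart, with means of 8.62 ± 0.0666 in GPS2KO and 9.02 ± 0.0215 in WT (SD, n = 3 each). The difference was -0.39 (SE 0.0453, interval -0.50 to -0.29, adjusted p = 0.00257), or 76.2% of the WT signal, and it passed under all 13 alternative settings.

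The other 3 p38 genes also had lower GPS2KO means but did not pass. Mapk14, or p38 alpha, the main p38 of macrophages, had 10.54, 10.56 and 10.52 in GPS2KO, against 10.76, 10.66 and 10.53 in WT. WT replicate 3 lay within the GPS2KO range, and the difference was -0.11 (interval -0.24 to 0.03, adjusted p = 0.374). Mapk13, p38 delta, differed by -0.17 (adjusted p = 0.131), with 5.53, 5.63 and 5.52 in GPS2KO, against 5.72, 5.65 and 5.81 in WT. Mapk12, p38 gamma, which lies next to Mapk11 in the genome, differed by -0.07 (interval -0.18 to 0.03, adjusted p = 0.423). Whether Mapk11 differed more than the other p38 genes was not tested.

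None of the JNK genes passed. Mapk8, JNK1, had 9.02, 9.02 and 9.04 in GPS2KO, against 9.18, 9.16 and 9.13 in WT. The groups did not overlap, but the difference of -0.13 (SE 0.0365, interval -0.21 to -0.04) did not pass (adjusted p = 0.0847), except after median centring (0.0493) and when dim genes were left out (0.0299). Mapk9, JNK2, differed by 0.04 (interval -0.06 to 0.14, adjusted p = 0.67). Mapk10, JNK3, known mainly from neurons, was dim, at means of 4.11 in GPS2KO and 4.05 in WT.

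Mapk6, the atypical kinase ERK3, had 11.14, 11.16 and 11.12 in GPS2KO, against 11.03, 11.01 and 10.99 in WT. Its difference of 0.13 (adjusted p = 0.088) passed with a variance trend (0.00733) and when dim genes were left out (0.0316). Mapk7, ERK5, the kinase that MEK5 activates after growth factors and stress, had 9.02, 8.90 and 8.98 in GPS2KO, against 8.87, 8.79 and 8.80 in WT (0.14, adjusted p = 0.129). Both had higher GPS2KO values without overlap. Mapk4 and Mapk15 were dim, at differences of -0.01 and -0.14 that did not pass.

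Of the kinases that p38 activates, Mapkapk2, or MK2, which relieves the block that the RNA-binding protein Zfp36 puts on cytokine RNA, had 11.57, 11.55 and 11.57 in GPS2KO, against 11.70, 11.68 and 11.71 in WT. The groups did not overlap, and the difference was -0.13 (SE 0.0358, adjusted p = 0.0769). It passed with a variance trend (0.00274), after median centring (0.0434) and when dim genes were left out (0.0263). Mapkapk3 and Mapkapk5 differed by 0.00 (interval -0.10 to 0.10) and -0.03 (-0.14 to 0.08).

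Of the 10 MAP kinase phosphatases, which recognise their kinase through a docking domain, 2 fell, 1 rose and 7 did not pass. Over all tested genes 3.83% fell and 2.9% rose, and these small counts were not tested against those shares. Dusp9, Dusp7 and Dusp6 form the cytoplasmic group that prefers ERK. Dusp9, or MKP-4, had 6.98, 6.86 and 7.01 in GPS2KO, against 7.29, 7.41 and 7.46 in WT. It fell by 0.43 (SE 0.0609, interval -0.58 to -0.29, adjusted p = 0.00606), to 74% of the WT signal, and passed under all 13 alternative settings.

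Dusp7, or MKP-X, rose. Its signal was 12.58, 12.56 and 12.56 in GPS2KO, against 12.37, 12.38 and 12.40 in WT. The arrays of each group lay close together, and the difference was 0.18 (SE 0.0355, interval 0.10 to 0.26, adjusted p = 0.0252), or 1.13-fold. Leaving out any 1 of the 6 arrays ended the call, at adjusted p between 0.0586 and 0.0841. Dusp6, or MKP-3, a feedback target of ERK, had 11.72, 11.70 and 11.66 in GPS2KO, against 11.54, 11.57 and 11.54 in WT. The groups did not overlap, and its difference of 0.15 (SE 0.0374, adjusted p = 0.0606) passed with a variance trend (0.00171) and when dim genes were left out (0.021).

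Dusp16, or MKP-7, which acts mainly on JNK and p38, had 8.93, 8.90 and 8.89 in GPS2KO, against 9.04, 9.13 and 9.07 in WT. It fell by 0.17 (SE 0.0408, interval -0.27 to -0.08) at adjusted p = 0.0498, just inside the threshold. The call was lost without any 1 array (0.0738 to 0.147), after a further quantile normalization (0.0601) and with the mean over the probe sets of each gene (0.0501). Dusp8 and Dusp10, the other phosphatases of that preference, differed by 0.03 (interval -0.13 to 0.19) and -0.01 (-0.11 to 0.09).

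The inducible phosphatases of the nucleus did not pass. Dusp1, or MKP-1, which limits p38 and JNK after Toll-like receptor signals, had 11.83, 11.72 and 11.70 in GPS2KO, against 11.80, 11.82 and 11.96 in WT, so the groups overlapped (-0.11, interval -0.25 to 0.02, adjusted p = 0.329). Dusp5, specific for ERK, differed by -0.14 (adjusted p = 0.361), Dusp4, MKP-2, by -0.09 (0.391) and Dusp2, PAC-1, by -0.08 (0.672). All 4 had their highest value of the 6 arrays in WT replicate 3.

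Of the 14 other DUSP genes, which act on varied substrates, Dusp22 fell and 13 did not pass. Dusp22, known as JKAP for its action in the JNK pathway, had 9.94, 9.92 and 9.93 in GPS2KO, against 10.09, 10.17 and 10.20 in WT. The GPS2KO arrays were almost the same as one another. The difference was -0.22 (SE 0.043, interval -0.32 to -0.12, adjusted p = 0.0228), or 85.7% of the WT signal. The call was lost without any 1 of the arrays except WT replicate 1, at adjusted p between 0.069 and 0.0829. Dusp3, or VHR, a small phosphatase of ERK and JNK, had 11.13, 11.12 and 11.07 in GPS2KO, against 11.02, 11.00 and 10.98 in WT (0.11, adjusted p = 0.151) and passed with a variance trend (0.0228). Dusp18 and Dusp13 differed by 0.12 and 0.15 with overlapping groups, and Dusp28 by -0.11 (adjusted p = 0.412). Dusp21 differed by -0.07 at a dim signal.

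Across the 70 genes the groups did not overlap for 23 (32.9%), against 27.1% of all tested genes. GPS2KO was lower in 16 of these (22.9%, against 15.2% of all tested genes) and higher in 7 (10%, against 11.9%). At an unadjusted p under 0.05 there were 18 of the 70 genes, against 3906 of all 18820 tested genes (20.8%). Of the 18, 11 did not pass after adjustment. How often the fit calls real differences of this size with 3 arrays a group is not known here. In simulated data, a planted log2 difference of 0.4 was called in 70% of genes, and one of 0.2 in 10%. Far fewer genes differed there than the 1265 called in the real data, so the adjusted threshold was stricter. Each gene was also drawn at the SD within groups of its own arrays, which is itself an estimate. The simulated shares therefore do not give the share that the real fit would call.

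**Figure D3:**
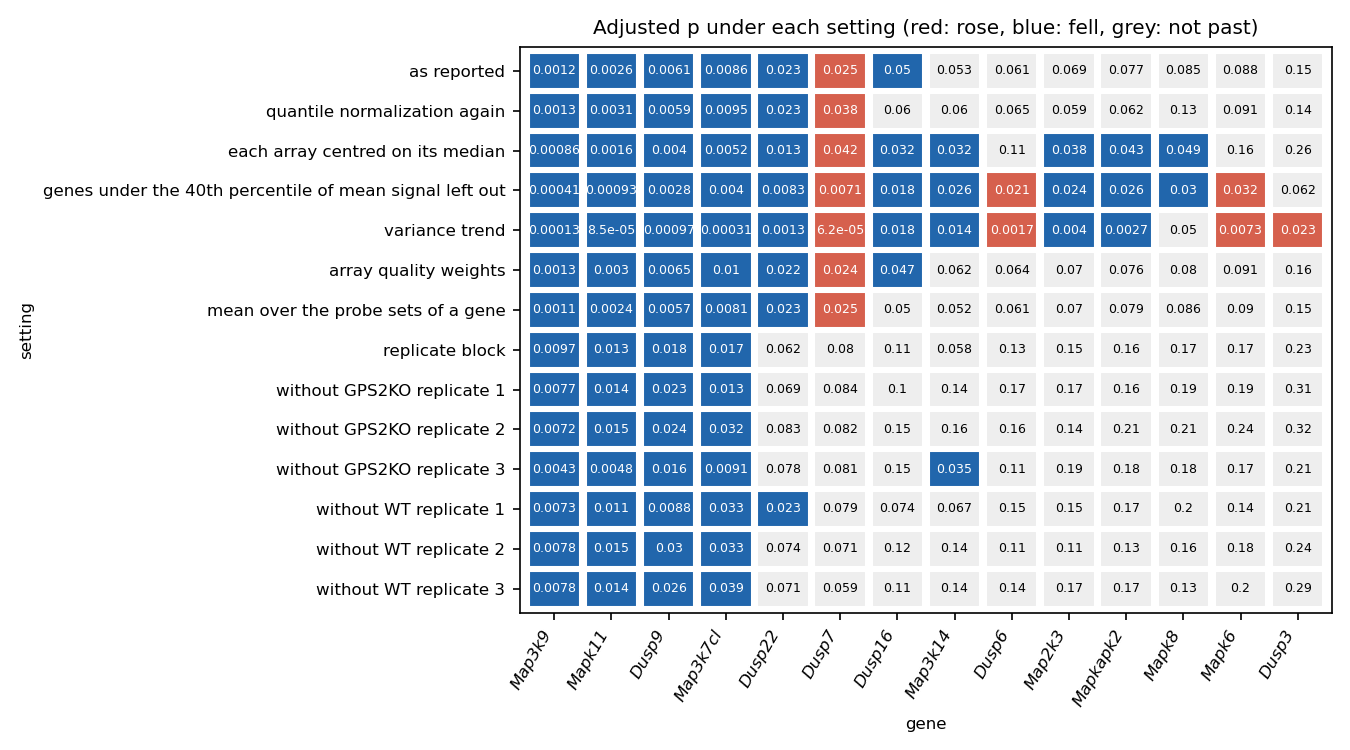
Adjusted p (number in each cell) of the 14 genes that passed under at least 1 setting, with genes in columns and settings in rows; blue cells fell, red cells rose and grey cells did not pass. Map3k9, Mapk11, Dusp9 and Map3k7cl are blue in every row, whereas Dusp22, Dusp7 and Dusp16 are grey in most rows that leave out 1 array.

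The genes beside the called ones were read from the RefSeq gene order. Of the nearest 2 tested genes on each side, Ttc9 next to Map3k9 fell (-0.38, adjusted p = 0.00611). Near Dusp7, Alas1 and Acy1 rose by 0.44 and 0.63 (adjusted p = 0.00115 and 0.0059), while the genes directly beside it, Poc1a and Rpl29, did not pass. The neighbours of Mapk11, Dusp9, Dusp22, Dusp16 and Map3k7cl did not pass.

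Upstream of ERK, 3 of 25 tested genes for Ras GTPases, their exchange factors, docking adaptors and RAF kinases rose, 2 fell and 20 did not pass (median 0.05). The called share was 20%, against 6.72% of all tested genes. In the lists described next it was 27.3% for the Ras-ERK inhibitors, 7.69% for the adaptors that feed JNK and p38, 6.25% for the scaffolds and 11.4% for the transcription factors and early response genes. These shares rest on 1 to 6 called genes a list and were not tested against the background. Gab1, a docking adaptor that recruits the phosphatase SHP2 to growth factor receptors, had 8.72, 8.80 and 8.74 in GPS2KO, against 8.08, 8.23 and 8.20 in WT. It rose by 0.58 (SE 0.0509, adjusted p = 0.00078), with no overlap. Its relative Gab3, known from signalling by the macrophage growth factor receptor, had 8.88, 8.91 and 8.89 in GPS2KO, against 8.33, 8.42 and 8.32 in WT. It rose by 0.54 (SE 0.0418, adjusted p = 0.000479), and the third relative, Gab2, differed by 0.14 (adjusted p = 0.0773). The estimates of Gab1 and Gab3 were larger than that of any of the 70 cascade genes.

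Of the 8 tested exchange factors that load Ras with GTP, 1 fell, 1 rose and 6 did not pass. Rasgrp4 fell by 0.38 (adjusted p = 0.00881), with 8.77, 8.72 and 8.93 in GPS2KO, against 9.19, 9.20 and 9.16 in WT. Rasgrp3 rose by 0.19 (adjusted p = 0.0235), and the small GTPase Rras fell by 0.20 (adjusted p = 0.0203). The Rasgrp3 call was lost whichever array was left out, at adjusted p up to 0.0899, and that of Rras without any but GPS2KO replicate 1, at up to 0.082.

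Of 22 tested inhibitors and feedback regulators of the Ras-ERK branch, 3 rose, 3 fell and 16 did not pass (median -0.01). Rasa4, a GTPase-activating protein that switches Ras off, had 9.55, 9.44 and 9.51 in GPS2KO, against 9.85, 9.92 and 9.95 in WT, and fell by 0.41 (adjusted p = 0.00241). The Sprouty genes Spry3 and Spry2 rose by 0.46 and 0.23 (adjusted p = 0.00714 and 0.0346). Spry3 was dim, with 5.43, 5.58 and 5.42 in GPS2KO, against 5.01, 4.92 and 5.12 in WT. Dok2, a myeloid adaptor that binds RasGAP, rose by 0.25 (adjusted p = 0.0161), and its relative Dok3 fell by 0.18 (0.0465). Spred1, which brings neurofibromin to Ras, fell by 0.18 (0.0313). Rasal2, another RasGAP, came next at 0.24 (0.0567) and passed under 5 of the 13 alternatives. The calls of Spred1 and Dok3 were lost whichever array was left out (adjusted p up to 0.101 and 0.132), that of Spry2 without 5 of the 6 (up to 0.109) and that of Dok2 without 4 (up to 0.0669).

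Of 26 tested adaptors and ubiquitin regulators that feed JNK and p38, 2 fell, 0 rose and 24 did not pass (median -0.04). Traf1, an adaptor of TNF receptors that NF-kappaB induces, had 6.61, 6.27 and 6.28 in GPS2KO, against 7.19, 7.18 and 7.05 in WT. It fell by 0.76 (SE 0.0943, adjusted p = 0.00354), to 59.2% of the WT signal. Daxx, which can activate ASK1, fell by 0.18 (adjusted p = 0.0335), a call lost whichever array was left out (up to 0.118). Traf5 had the next smallest p (0.14, adjusted p = 0.113). Of 16 scaffolds of MAP kinase modules, Arrb1, which encodes beta-arrestin 1, fell by 0.21 (adjusted p = 0.0261), again lost whichever array was left out (up to 0.0868), and 15 did not pass (median -0.02). Next came Sh3rf1, which is also counted among the adaptors (-0.18, adjusted p = 0.117), and which passed without WT replicate 1 (0.0358).

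Among 5 other kinases that ERK or p38 activates (median 0.07) and 14 other phosphatases that act on MAP kinases (median 0.05), 0 passed in limma. Of these, 3 of the 5 and 1 of the 14 had an unadjusted p under 0.05, against 20.8% of all tested genes. The smallest p in these lists belonged to Mknk1, the kinase of the translation factor eIF4E (0.14, adjusted p = 0.0849), and to the haematopoietic ERK phosphatase Ptpn7 (0.12, adjusted p = 0.104). With a variance trend both passed, at adjusted p = 0.0057 and 0.00696, and likewise when dim genes were left out, at 0.032 and 0.037.

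Downstream, 2 of 35 transcription factors and early response genes rose, 2 fell and 31 did not pass (median -0.02). Fos, an AP-1 subunit induced by ERK signalling, had 10.00, 9.99 and 9.95 in GPS2KO, against 10.29, 10.23 and 10.39 in WT, and fell by 0.32 (SE 0.0481, adjusted p = 0.00771). Its call held under all 13 alternative settings. Jun, the AP-1 subunit that JNK phosphorylates, had 11.91, 11.87 and 11.87 in GPS2KO, against 11.73, 11.76 and 11.73 in WT. The groups did not overlap, but the difference of 0.14 missed the threshold (SE 0.0365, adjusted p = 0.0675), except with a variance trend (0.00167) and when dim genes were left out (0.0233).

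Zfp36, or tristetraprolin, which destabilises cytokine RNA and is held in check by MK2, rose by 0.23 (adjusted p = 0.0214), with 10.31, 10.22 and 10.28 in GPS2KO, against 10.02, 10.09 and 10.01 in WT. Klf2, a factor that restrains myeloid activation, fell by 0.32 (adjusted p = 0.0276). Egr2, a zinc finger factor of the early response, rose by 0.31 (adjusted p = 0.0474). The Egr2 call was lost whichever array was left out (up to 0.137), after median centring (0.0574) and with array quality weights (0.0519). That of Klf2 was lost without any but GPS2KO replicate 3 (up to 0.0854), and that of Zfp36 without 4 of the 6 (up to 0.0784).

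**Figure D4:**
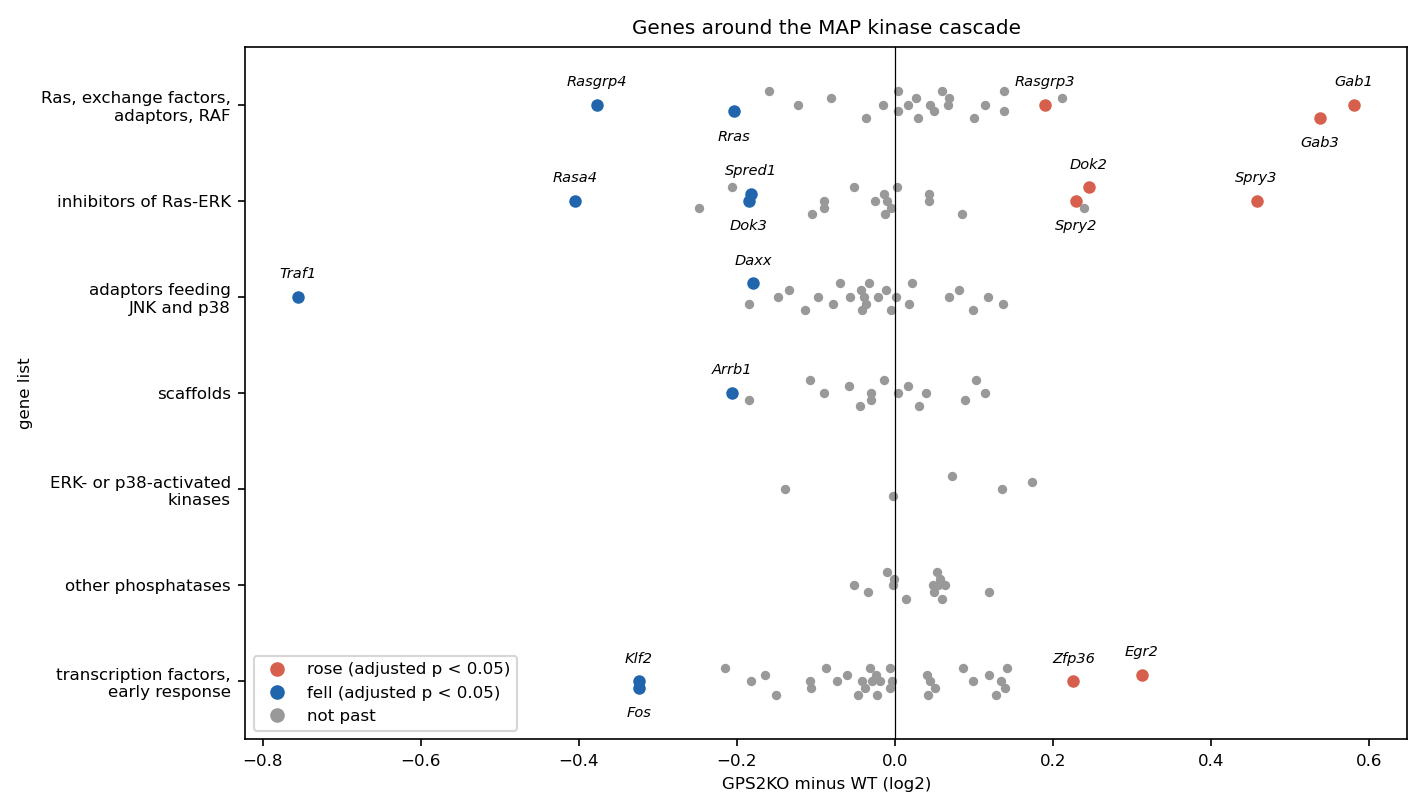
Difference between GPS2KO and WT on the log2 scale (horizontal axis) for the tested genes of 7 lists around the cascade (vertical axis), 1 point per gene. Blue points fell, red points rose and grey points did not pass, with names for those that passed; Traf1 lies farthest left at -0.76 and Gab1 farthest right at 0.58.

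Markers of other cells were read beside these results. In bulk RNA, fewer cells of a type and less RNA per cell cannot be told apart. Of all tested genes 6.72% passed, and the small counts of called markers below were not tested against that share. Of 12 fibroblast and stromal markers, Pdgfrb, Thy1 and Col1a1 fell, Dcn rose and 8 did not pass, and their mean log2 level per array was 9.47 to 9.55 in GPS2KO and 9.53 to 9.58 in WT. Of 10 dendritic cell markers, Itgax rose and 6 were dim (5.23 to 5.28 in GPS2KO and 5.11 to 5.19 in WT). Of 9 lymphocyte markers Cd79b fell and 8 were dim (4.70 to 4.72 in GPS2KO and 4.75 to 4.78 in WT). Of 11 neutrophil markers Ngp rose and 8 were dim (4.96 to 5.06 in GPS2KO and 4.91 to 5.02 in WT). Of 10 mast cell and basophil markers 0 passed in limma, with 0 at an unadjusted p under 0.05, and 8 were dim (4.64 to 4.67 in GPS2KO and 4.64 to 4.67 in WT). Of 10 osteoclast markers Atp6v0d2 and Ctsk rose and Ocstamp and Tnfrsf11a fell (8.11 to 8.15 in GPS2KO and 8.03 to 8.06 in WT). Of 11 macrophage markers Fcgr3, Mertk and Itgam rose and 0 fell (11.49 to 11.52 in GPS2KO and 11.39 to 11.42 in WT). The part of such cells in the differences of the cascade genes was not tested.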

How the data were processed

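Expression was measured in 3 GPS2KO and 3 WT samples, grouped by their titles. The values the authors deposited are log2 signals, 1 per probe set and array, and the submitters' processing notes name RMA and oligo. Versions and build are not given in the sources used here. RMA normalizes across arrays, so a shift shared by most genes would not show. With arrays there is no sequencing depth, and it is the number of arrays that limits the precision.

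Of 35556 probe sets, 21218 had exactly 1 symbol in GEO's platform annotation, 1881 several and 12457 none listed. They gave 18820 genes, each by its brightest probe set. The 70 genes had 74 probe sets, and all 70 matched RefSeq by gene number. Genes were tested with limma 3.58.1 in R 4.3.3 (lmFit, eBayes, group as the only term), 2-sided, with Benjamini-Hochberg adjustment over all genes and a threshold of 0.05. The members, roles, lists and 13 alternatives were chosen with earlier results of these data known. Named were all called genes, all MAP kinases and MAP2K, up to 5 others per role and, per pathway list, up to 6 called genes and the next by p. The other MAP3K, Dusp8, Dusp10, the exchange factors as a group, the neighbours and the markers were named after their values were seen. Of 232 listed pathway and marker symbols, 214 were tested and 18 not analysed here.

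On simulated data for all 18820 genes, limma called 10%, 70%, 100% and 100% of 50 genes each planted at log2 differences of 0.2, 0.4, 1 and 2, and 7 unplanted genes. The real data gave 1265 calls, so the adjusted threshold was stricter in the simulation.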

Additional observations from a re-analysis of the deposited data

How the results depend on the processing

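As reported, 1 cascade gene rose and 6 fell. Centring each array on its median gave 1 and 10, leaving out dim genes 3 and 10, and a variance trend 4 and 9. These settings also called more of all tested genes: 8.08%, 17.4% and 11.6%, against 6.72% as reported. Without dim genes, 59 cascade genes were tested. Without any 1 array 0 rose and 4 to 5 fell. Over all genes, 545 rose and 720 fell as reported, 460 and 1061 after median centring (30.2% rises against 43.1%), 808 and 1154 without dim genes, and 926 and 1248 with a variance trend. Without any 1 array, 322 to 376 rose and 419 to 503 fell. Leaving out dim genes tests fewer genes, and leaving out an array uses fewer samples; the cause of the other shifts was not tested. No label says whether the replicate numbers pair the samples. Deviations from the group means correlated at -0.01 to 0.03 between samples of the same number. Between samples of different numbers they correlated at -0.03 to 0.02. With 3 arrays a group, such values cannot show whether the samples are paired. With the replicate number as a block, 0 cascade genes rose and 4 fell, namely Map3k9, Mapk11, Dusp9 and Map3k7cl, and 862 of all genes passed. Gps2 passed under all 13 alternatives, at differences from -0.78 to -0.72. Of 643 values of the 50 named cascade genes under these alternatives, 22 lost a call, 17 gained one and 0 called values reversed, while 21 turned sign without passing in either setting. Of 324 values of 25 named pathway genes, 71 lost a call and 15 gained one. Signals of Mapk4, Mapk10, Mapk15, Map3k19, Map3k21, Mapk8ip2 and Dusp21 were dim, which limits what their differences can show.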
